A study of Oryza sativa with 12 samples.

Results

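The table of root transcripts held 1279 rows with a serial number in place of a rice locus identifier, such as Novel00347, which stand outside the rice annotation. The transcripts described here are the 463 of these rows (36.2%) that were selected on their level: their CPM (the count divided by the library's total count, put on a common scale) averaged at least 5 in at least 1 of the 4 groups. The whole table had 57265 features. Wild type rice (Oryza sativa, cultivar XS134) was compared with Ri1, 1 transgenic RNAi line against OsPEP1 in the same cultivar. Roots of 7-day-old seedlings from the greenhouse were treated with ethanol or with 1 µM PEP1, which gave 4 groups of 3 libraries: wild type under ethanol, wild type under PEP1, RNAi line under ethanol and RNAi line under PEP1. The labels give neither the sequence of PEP1 nor the length of the treatment. The RNAi construct and anything else in which this single line differs from the wild type plants cannot be told apart. The locus of OsPEP1 is not given in the labels, and its level was not analysed here. Because the rule read the level in each group, counts over the 463 transcripts are descriptions. Unless stated otherwise, counts of calls are set beside the share among all 25602 features that were tested. Counts of transcripts read almost only in 1 genotype are set beside that among all features meeting the level rule.

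A transcript is called unannotated when reads map to a stretch of the genome where the reference annotation places no gene. Such rows can be long non-coding RNAs, protein-coding genes that the annotation missed, unlinked ends of known genes, transcripts of transposable elements, or genes that differ between the cultivar sequenced and the reference cultivar. RNA interference lowers a target's RNA through small RNAs cut from a double-stranded hairpin. Grass roots short of iron raise a set of genes for the synthesis of nicotianamine and mugineic acid phytosiderophores and for the uptake of iron, and these genes serve below as a reference profile. The sources used here give no sequence, position, length or strand for any of these rows, so no sequence is shown, and CPM values show a row's share of the reads and not its abundance per length. How the rows were assembled is not given in the sources used here either, so a row may share reads with an overlapping gene, an antisense partner or a near-identical copy, and all their values carry that uncertainty.

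Total counts per library ranged from 15368736 to 21317008, and 3 counts, taken here as the limit of detection, corresponded to 0.141 to 0.195 CPM. No 2 libraries of a group agreed within sampling noise, the smallest chi-square per degree of freedom being 14.98. The root silicon transporter loci Lsi1 (LOC_Os02g51110) and Lsi2 (LOC_Os03g01700), chosen after their values were seen, were counted in every library. Their sum was 656 to 822 CPM in wild type under ethanol, 1444 to 4260 in wild type under PEP1, 1069 to 1771 in the RNAi line under ethanol and 1820 to 2885 in the RNAi line under PEP1, so that it was higher under PEP1 in both genotypes, and the part of this in the PEP1 changes below was not tested. All 3 shoot (photosynthesis) loci also had reads in every library. Their summed level was 23.3 to 281 CPM in wild type under ethanol, 79.7 to 185 in wild type under PEP1, 10.3 to 65.3 in the RNAi line under ethanol and 55.3 to 744 in the RNAi line under PEP1. In these whole roots, fewer cells of a type and less RNA per cell cannot be told apart. Levels below are CPM scaled with TMM factors, which correct for differences in library composition.

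Most of the 463 transcripts were counted in all conditions at a low level. In 306 of them the mean reached 5 CPM in all 4 groups, in 32 in 3 groups, in 71 in 2 groups and in 54 in a single group. The mean level over the 12 libraries ran from 1.81 to 473 CPM with a median of 11.2, against a median of 24.3 for the 18668 annotated loci that met the same level rule. It exceeded 100 CPM in 22 transcripts and stayed under 10 CPM in 212. Together the 463 rows took 1.26% of all counts. The transcripts just inside the rule were Novel00878, Novel00049 and Novel00326, each with 5.01 CPM in its highest group, and the rows just outside were Novel00996 with 4.999, Novel00380 with 4.93 and Novel00841 with 4.92. The coefficient of variation over the 12 libraries had a median of 27.3%. It was under 10% in 14 transcripts and over 100% in 52. No share over all features stands beside these counts by group, level and variation. They do not say whether the 463 stand out.

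The steadiest transcript was Novel00252, at 94.2, 97.1 and 91.2 CPM in wild type under ethanol, 95.5, 93.1 and 96.7 in wild type under PEP1, 87.5, 96.7 and 89.2 in the RNAi line under ethanol and 92.5, 95.2 and 91.2 in the RNAi line under PEP1. Its groups overlapped throughout, with a coefficient of variation of 3.34%. Novel00890 (6.61%), Novel00699 (6.67%) and Novel00638 (7.11%) came next.

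The widest differences among these transcripts lay between the genotypes. With a limit of 50-fold between the means of the 6 wild type and the 6 RNAi libraries, chosen after the values were seen, 20 transcripts were read almost only in the RNAi line and 15 almost only in the wild type. These 35 made up 7.56% of the 463. Of all features that met the level rule, 0.475% were that much higher in the RNAi line and 0.387% in the wild type, 0.862% together, and of the annotated loci that met it, 0.380%, 0.316% and 0.696%. No library of one genotype overlapped any of the other in any of the 35. As the 50-fold limit picked them on these same values, this separation describes the choice and lends it no support. The share without overlap among all features beyond that limit is not given. Among the 20, 12 had no read in any of the 6 wild type libraries, which is 2.59% of the 463, where 0.188% of all features (these 12 included) and 0.129% of annotated loci at that level had none. The other 8 had at most 6 wild type reads. Among the 15, 6 had no read in any RNAi library, which is 1.3% of the 463 against 0.193% (these 6 included) and 0.166%, and the other 9 had at most 22.

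**Figure D1:**
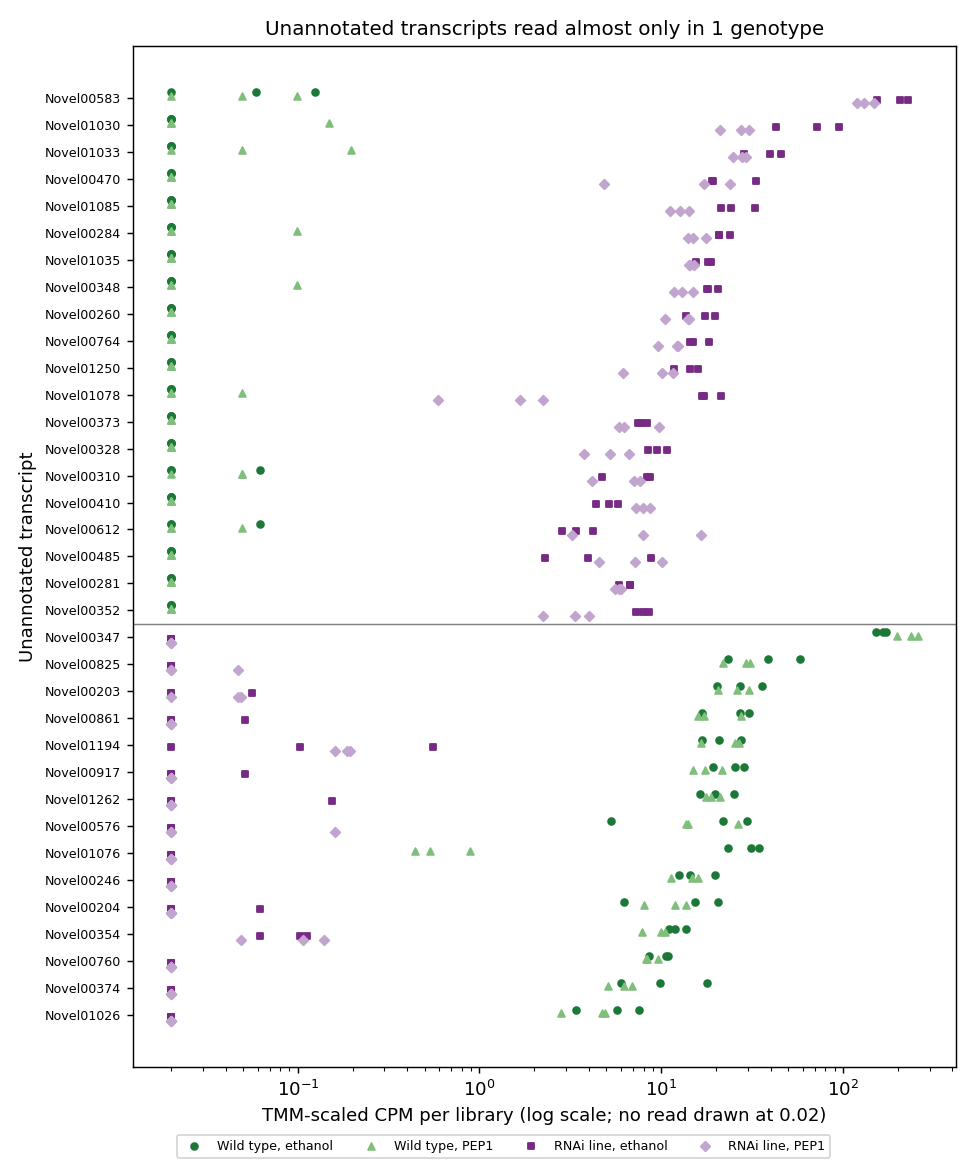
TMM-scaled CPM on a log scale (x axis) of the 35 unannotated transcripts with at least 50-fold different means between the genotypes (y axis, one row each); every point is 1 library, 3 for each of the 4 groups, and libraries without a read are drawn at 0.02. The upper 20 rows have points near or above 1 CPM only in the RNAi line and the lower 15 only in the wild type, apart from Novel01076 and Novel01078, in which PEP1 libraries of the carrying genotype fall to between 0.443 and 2.24 CPM.

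Novel00347 was the most strongly read of the wild type transcripts. It stood at 172, 166 and 152 CPM in wild type under ethanol and at 238, 198 and 260 under PEP1, and the 6 RNAi libraries held no read. Set against a limit of 3 counts over the group, it was at least 2915-fold higher in the wild type under ethanol and at least 4731-fold higher under PEP1. Its 3 libraries under PEP1 all lay above those under ethanol, but the change of 0.51 ± 0.14 (log2, SE) did not pass the test (edgeR adjusted p = 0.10).

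Novel00583 was the counterpart in the RNAi line. It reached 155, 229 and 206 CPM in the RNAi line under ethanol and 131, 119 and 148 under PEP1. The wild type libraries held 0.124, 0.0591 and 0 CPM under ethanol and 0.0984, 0 and 0.0493 under PEP1, 3 reads in each treatment. The ratio was 3245 under ethanol (95% counting interval 1110 to 15736, edgeR adjusted p = 9.02e-07) and 2552 under PEP1 (873 to 12378, edgeR adjusted p = 9.13e-07). These intervals, like the limits of detection, cover counting error only.

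The other wild type transcripts had lower levels. Novel00825 had a mean of 33.7 CPM over the 6 wild type libraries and 1 read in the RNAi line, Novel00203 had 26.8 CPM and 3 reads, and Novel00861 had 22.5 CPM and 1 read. Novel01194 (22.3 CPM), Novel00917 (21.3 CPM), Novel01262 (19.8 CPM), Novel00576 (18.5 CPM), Novel00204 (12.7 CPM) and Novel00354 (10.8 CPM) likewise had between 1 and 22 reads in the RNAi line. The transcripts with no RNAi read besides Novel00347 were Novel01076 (15.2 CPM in the wild type), Novel00246 (14.8 CPM), Novel00760 (9.37 CPM), Novel00374 (8.67 CPM) and Novel01026 (4.85 CPM).

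In the RNAi line, Novel01030 followed Novel00583 with a mean of 48.1 CPM over the 6 libraries, then Novel01033 with 32.8 CPM, Novel00284 with 18.7 CPM and Novel00348 with 16.0 CPM. The wild type held 2 to 5 reads of each of these. The 12 without a wild type read ranged from Novel00470 at 19.6 CPM, Novel01085 at 19.4 CPM and Novel01035 at 16.1 CPM, through Novel00260 at 14.97 CPM, Novel00764 at 13.6 CPM, Novel01250 at 11.7 CPM, Novel00373 at 7.56 CPM and Novel00328 at 7.40 CPM, to Novel00410 at 6.53 CPM, Novel00485 at 6.14 CPM, Novel00281 at 6.13 CPM and Novel00352 at 5.57 CPM. The remaining 3 were Novel01078 (9.97 CPM), Novel00310 (6.77 CPM) and Novel00612 (6.35 CPM), with 1 to 3 wild type reads.

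Transcripts with neighbouring serial numbers sometimes fell in the same class. Novel00203 and Novel00204 were read in the wild type, and Novel00281 and Novel00284 as well as Novel01030, Novel01033 and Novel01035 in the RNAi line. Neighbours were also opposed: Novel00347, Novel00354, Novel00374 and Novel01076 were read in the wild type. Their neighbours Novel00348, Novel00352, Novel00373 and Novel01078 were read in the RNAi line. Among the 35, only Novel00203 and Novel00204, Novel00347 and Novel00348, and Novel00373 and Novel00374 had consecutive numbers. Over all 168 pairs of the 463 with adjacent serial numbers, the median Pearson correlation of log2(CPM + 1) over the 12 libraries was 0.03, and over all pairs it was 0.12. Whether serial numbers follow position in the genome is not given in the sources used here.

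Annotated loci, unlike these rows, carry a chromosome number in their identifiers. For the 9 RNAi line transcripts named among the largest differences, the 2 nearest annotated loci of each came to 13 distinct loci, of which 7 had identifiers of chromosome 11. For the 10 wild type transcripts it was 1 of 16 distinct loci. The lowest of these correlations over the 12 libraries was 0.9858. Such values chiefly state that both rows are absent or nearly absent from the same genotype. LOC_Os12g13340, second nearest to Novel01076, was an exception, with 5.14 to 15.5 CPM in the RNAi libraries. The nearest loci of Novel00583 were LOC_Os11g34820 and LOC_Os11g33310. Among all 71 annotated loci that were likewise read almost only in the RNAi line, 25 (35.2%) lay on chromosome 11, where 5.37% of annotated loci at that level lie. Among the 59 read almost only in the wild type, 17 (28.8%) lay on chromosome 12, where 5.45% lie, and 9 (15.3%) on chromosome 11. No position was assigned to an unannotated transcript from this.

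Among these 35 transcripts, 5 also changed with PEP1 in the genotype that carried them. They were 1 of the 15 in the wild type, where 5.19% of all features were called. The other 4 were among the 20 in the RNAi line, where 15.4% were called. Novel01076 stood at 31.3, 23.4 and 34.5 CPM in wild type under ethanol and at 0.886, 0.535 and 0.443 under PEP1, so that the treatments did not overlap. It fell by 5.56 ± 0.35 on the log2 scale (edgeR adjusted p = 4.04e-04). Its nearest loci over the 12 libraries were LOC_Os12g13350 (r = 0.992), which was also without a read in the RNAi line and fell by 5.95 ± 0.54 in the wild type (edgeR adjusted p = 0.00173), and LOC_Os12g13340 (r = 0.986).

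Novel01078 showed the fall in the other genotype. It stood at 16.8, 17.3 and 21.3 CPM in the RNAi line under ethanol and at 2.24, 0.589 and 1.68 under PEP1, and a single wild type read was counted. The RNAi libraries of the treatments did not overlap, and the transcript fell by 3.61 ± 0.49 (log2, edgeR adjusted p = 0.00307). Novel01030 (a fall of 1.41 ± 0.37), Novel01085 (1.05 ± 0.23) and Novel00352 (1.31 ± 0.30) also fell with PEP1 in the RNAi line, with edgeR adjusted p of 0.0375, 0.0273 and 0.0341. The other 30 transcripts of this kind passed no PEP1 test.

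Counted over all 463, 50 transcripts (10.8%) differed between the genotypes under ethanol, 29 higher and 21 lower in the RNAi line. Of all features 3.79% did (2.16% higher, 1.63% lower), and of the annotated loci at this level 3.59%. Under PEP1 it was 51 (11%), 27 higher and 24 lower, against 2.65% of all features (1.52% higher, 1.14% lower) and 2.16% of annotated loci at this level. In both treatments 47 were called in the same direction, which is 94% of the first list and 92.2% of the second, and none in opposite directions. Over all features, 2.03% were called in the same direction in both treatments, 53.6% and 76.6% of their lists. All 35 transcripts read almost only in 1 genotype were among the 47, and they had been picked on the same difference. Without these 35, 15 of the other 428 (3.50%) were called under ethanol and 16 (3.74%) under PEP1, and 405 of the 428 had means within 2-fold of each other.

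Graded genotype differences, with reads in both genotypes, were thus fewer. Novel00831 had 5.08, 4.90 and 5.87 CPM in wild type under ethanol, 4.67, 5.05 and 4.34 in wild type under PEP1, 49.9, 49.3 and 54.1 in the RNAi line under ethanol and 31.5, 29.3 and 41.9 in the RNAi line under PEP1. Every RNAi library was above every wild type library. The difference was 3.27 ± 0.16 (log2) under ethanol and 2.87 ± 0.16 under PEP1. Novel00507 (means of 0.560 CPM in the wild type and 14 CPM in the RNAi line) and Novel01064 (1.55 and 16.2 CPM) leaned the same way. In the opposite direction, Novel00721 (14 CPM in the wild type and 0.293 CPM in the RNAi line), Novel00311 (11 and 0.383 CPM), Novel00350 (7.92 and 0.301 CPM), Novel01149 (7.43 and 0.15 CPM) and Novel00916 (5.55 and 0.504 CPM) were higher in the wild type, and none of these 5 had overlapping ranges between the genotypes. These graded examples were picked after their values were seen.

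With PEP1 in the wild type, 24 of the 463 (5.18%) passed the test, against 5.19% of all features and 5.83% of annotated loci at this level, so their share was that of the background. Among the 24, 7 rose and 17 fell, against 2.54% and 2.66% of all features, and in none of the 24 did the ethanol and PEP1 libraries overlap, as in 99.6% of all features called in this comparison. The 17 falls had a median of -1.98 on the log2 scale and the 7 rises a median of 2.11. Both are medians of transcripts picked by passing the test, and the median over all 463 was -0.10.

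In the RNAi line, PEP1 changed 89 of the 463 (19.2%), against 15.4% of all features and 17.2% of annotated loci at this level. Here 20 rose and 69 fell. Among all features 8.68% rose and 6.68% fell, and the median change of the 463 was -0.28 where that of all features was -0.01. Of the 69 falls, 34 were under 2-fold and 35 reached 2-fold, as did 873 of the 1711 falls among all features. The median of all 69 was -1.004 on the log2 scale. Among them, 65 also had a negative change in the wild type, as did 96.4% of all features that fell, and the median wild type change of the 69 was -0.49. The other 4, Novel01030, Novel01078, Novel01085 and Novel00352, had only 3, 1, 0 and 0 wild type reads. A wild type change cannot be read for these 4, although the median includes them. Of the 20 that rose, all had a positive change in the wild type, as did 95.6% of all features that rose.

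The counts depended on single libraries. Without replicate 1 of wild type under ethanol, 65 transcripts passed in the wild type. Without replicate 1 or replicate 3 of wild type under PEP1, 15 did. In the RNAi line the count of 89 was 29 without replicate 3 of the ethanol group or replicate 1 of the PEP1 group.

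Between the genotypes the calls were shared in one direction. In both genotypes 22 transcripts were called, 7 higher and 15 lower, which is 91.7% of the wild type list and 24.7% of the RNAi list, and none was called in opposite directions. The 22 are 4.75% of the 463. Over all features, 3.95% were called in the same direction in both genotypes, 76% of their wild type list and 25.7% of their RNAi list. In a direct test of whether the PEP1 change differed between the genotypes, edgeR called none of the 463, against 0.00391% of all features. The 12 transcripts without a wild type read and the 6 without an RNAi read could not be called here. For these the PEP1 change in the genotype without reads cannot be estimated. Of these 463, 19 had an unadjusted edgeR p below 0.05, beside 1353 of all 25602 features. DESeq2 and limma-voom also called none of the 463. Among the 386 transcripts whose mean over all 12 libraries reached 5 CPM, a level taken without regard to group, 18 (4.66%) were called with PEP1 in the wild type and 77 (19.9%) with PEP1 in the RNAi line, against 5.19% and 15.4% of all features. Between the genotypes, 32 (8.29%) were called under ethanol and 34 (8.81%) under PEP1, against 3.79% and 2.65%.

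**Figure D2:**
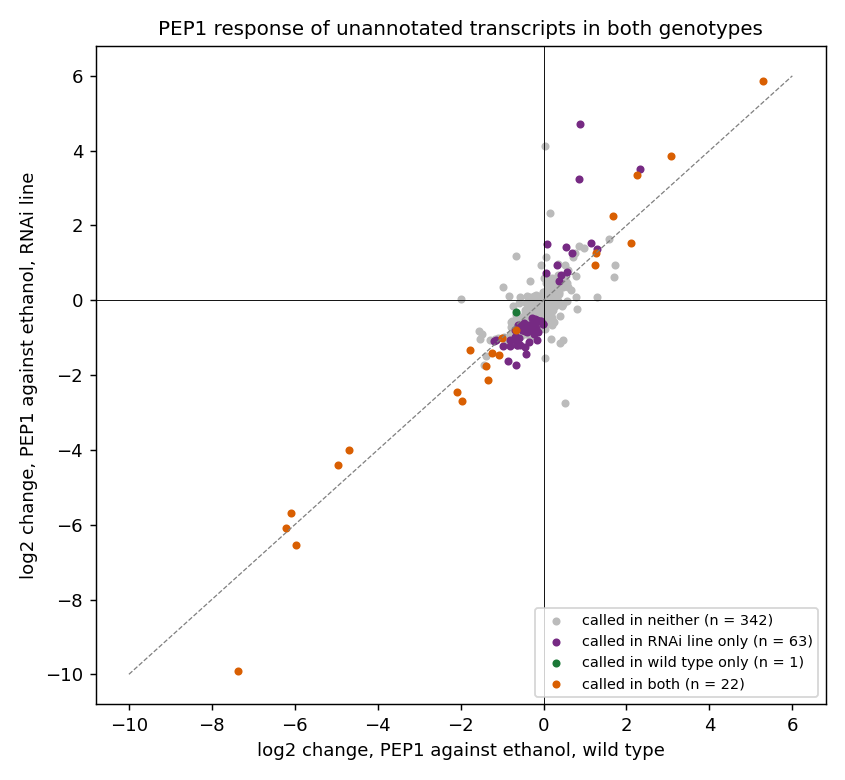
Log2 change with PEP1 in the wild type (x axis) and in the RNAi line (y axis) for the 428 unannotated transcripts that were not read almost only in 1 genotype; each point is 1 transcript, coloured by the comparisons in which it passed edgeR's test at an adjusted p of 0.05, and the dashed line marks equal change. The 22 transcripts called in both lie in the lower left and upper right quadrants, 63 were called in the RNAi line alone and 1 in the wild type alone.

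The most strongly counted of the transcripts that fell in both genotypes was Novel00050. It stood at 439, 356 and 356 CPM in wild type under ethanol and at 23.3, 5.17 and 15.8 under PEP1. In the RNAi line it stood at 336, 420 and 380 CPM under ethanol and at 21.8, 18.8 and 29.6 under PEP1. All 6 ethanol libraries were far above all 6 PEP1 libraries, and the genotypes overlapped in both treatments. It fell by 4.70 ± 0.46 in the wild type (log2, edgeR adjusted p = 2.67e-04) and by 4.01 ± 0.44 in the RNAi line (edgeR adjusted p = 5.06e-04).

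Novel00554 behaved alike at a lower level. It stood at 240, 201 and 188 CPM in wild type under ethanol, 9.5, 3.8 and 7 in wild type under PEP1, 160, 219 and 202 in the RNAi line under ethanol and 9, 4.66 and 13.5 in the RNAi line under PEP1. Ethanol and PEP1 libraries were again fully apart. It fell by 4.95 ± 0.42 in the wild type (edgeR adjusted p = 1.08e-04) and by 4.41 ± 0.41 in the RNAi line (edgeR adjusted p = 1.87e-04).

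Novel00992 had the largest fall and the widest spread. Under ethanol it was counted at 112, 31.4 and 30.1 CPM in the wild type and at 35.7, 173 and 96.5 in the RNAi line. Under PEP1 it was counted at 0.197, 0.178 and 0.641 CPM in the wild type and at 0.0973, 0.161 and 0.0466 in the RNAi line, close to the limit of detection. No ethanol library came near a PEP1 library, although the ethanol libraries differed several-fold among themselves, with the highest values in replicate 1 of the wild type and replicate 2 of the RNAi line. It fell by 7.36 ± 0.87 in the wild type (edgeR adjusted p = 8.54e-04) and by 9.91 ± 1.01 in the RNAi line (edgeR adjusted p = 3.40e-04). In replicate 1 of the wild type under ethanol, 3 nitrate response loci summed to 1631 CPM against 11.8 to 197 in the other 11 libraries, and in replicate 2 of the RNAi line under ethanol, 2 diterpenoid phytoalexin loci summed to 137 CPM against 0.359 and 0.370 in the other libraries of that group. Their part in the result was not tested.

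Novel00270 fell from 21.0, 16.1 and 19.0 CPM to 0.492, 0.0594 and 0.296 in the wild type and from 26.0, 30.4 and 27.8 CPM to 0.195, 0.161 and 0.513 in the RNAi line. The replicates of each ethanol group were close together here. The changes were -5.97 ± 0.48 (edgeR adjusted p = 7.35e-05) and -6.55 ± 0.48 (edgeR adjusted p = 4.76e-05). Novel00766 fell by 6.20 ± 0.58 and 6.09 ± 0.61 from means of 14.8 and 8.29 CPM, and Novel00160 fell by 6.08 ± 0.75 and 5.69 ± 0.71 from means of 7.43 and 7.94 CPM, in the wild type and the RNAi line respectively.

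The other 9 transcripts that fell in both genotypes changed less. Novel00692 (-1.98 in the wild type and -2.69 in the RNAi line), Novel01157 (-2.09 and -2.44), Novel00718 (-1.77 and -1.33), Novel00175 (-1.39 and -1.77), Novel01103 (-1.34 and -2.12), Novel01042 (-1.26 and -1.42), Novel01119 (-1.07 and -1.46), Novel00426 (-1.01 and -1.02) and Novel00726 (-0.66 and -0.79) made up this set. Novel01157 was the most counted of them, at 63.9, 64.1 and 66.8 CPM in wild type under ethanol and 11.1, 20.8 and 13.7 under PEP1. Novel01103 also differed between the genotypes under ethanol, where it was 1.00 ± 0.23 higher in the RNAi line (log2, edgeR adjusted p = 0.0330). Besides Novel01076, Novel00061 passed the test in the wild type alone, at -0.68 ± 0.17 (edgeR adjusted p = 0.0490), against -0.31 ± 0.17 in the RNAi line (edgeR adjusted p = 0.234).

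**Figure D3:**
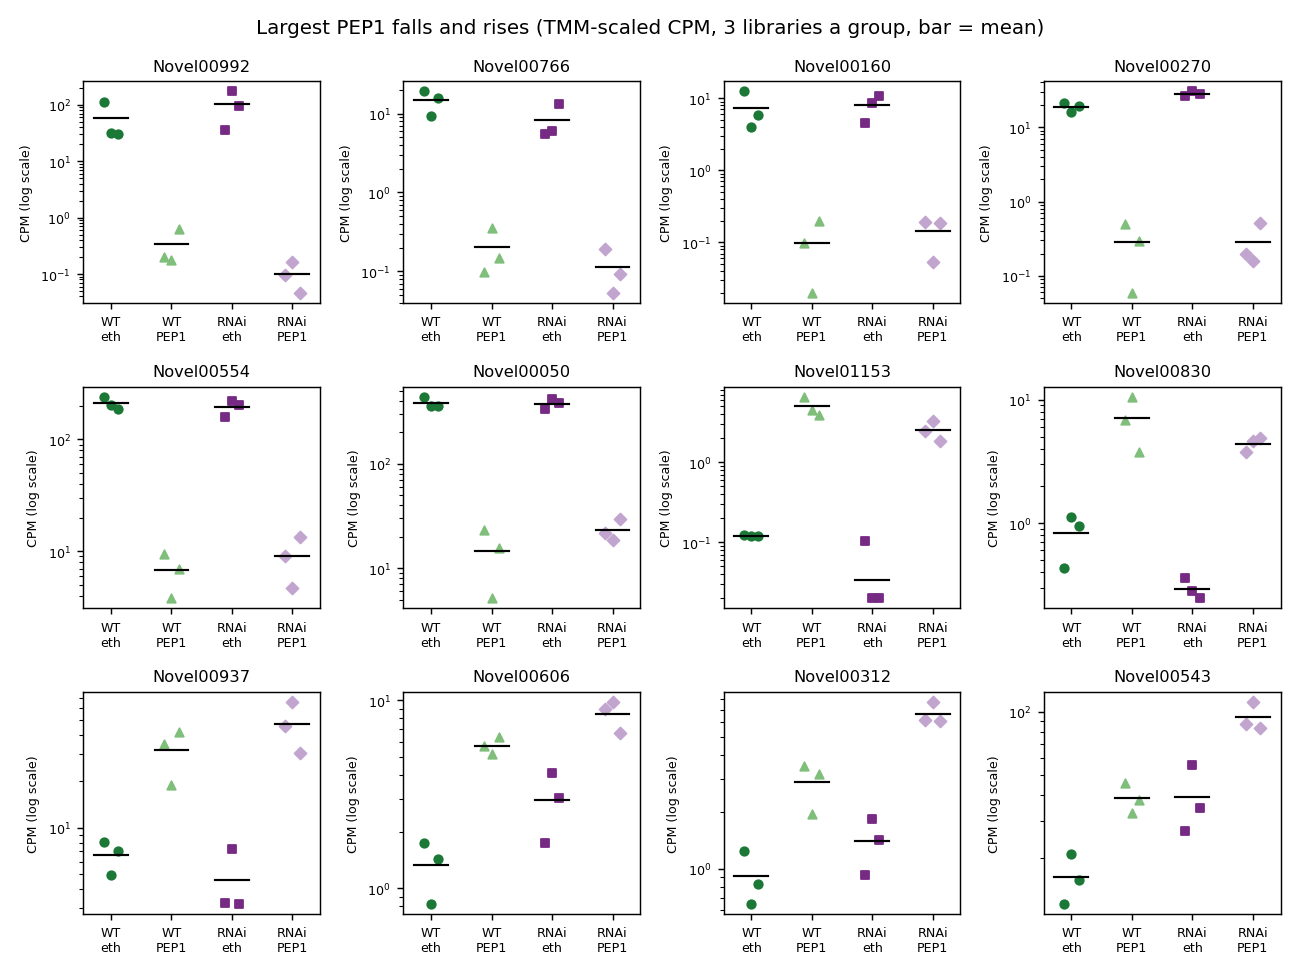
TMM-scaled CPM on a log scale (y axis) in the 4 groups (x axis) of the 6 unannotated transcripts with the largest falls in both genotypes and of the 6 with the largest rises in the wild type; points are libraries, 3 a group, bars are means, and libraries without a read are drawn at 0.02. In the 6 that fell, every ethanol library lies above every PEP1 library, with 439 CPM as the highest value, in Novel00050.

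The transcripts that rose in at least 1 genotype had means over the 12 libraries from 1.92 CPM (Novel01153) to 69.7 CPM (Novel00438). Novel01153, with the largest rise in the wild type, was at 0.124, 0.118 and 0.119 CPM in wild type under ethanol, at the limit of detection, and at 6.54, 4.46 and 3.94 under PEP1. In the RNAi line it was at 0.102, 0 and 0 CPM under ethanol, 2 reads in all, and at 2.48, 3.32 and 1.86 under PEP1. The rise was 5.30 ± 0.57 in the wild type (log2, edgeR adjusted p = 5.06e-04), and the ratio in the RNAi line was 67.6 (95% counting interval 18.4 to 563, edgeR adjusted p = 5.63e-04).

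Novel00830 rose from 0.434, 1.12 and 0.949 CPM to 6.89, 10.5 and 3.79 in the wild type and from 0.359, 0.280 and 0.246 CPM to 3.74, 4.60 and 4.85 in the RNAi line. Treatments did not overlap in either genotype. The rises were 3.07 ± 0.43 (edgeR adjusted p = 0.00234) and 3.86 ± 0.47 (edgeR adjusted p = 9.31e-04). Novel00937 was better counted, at 8.06, 4.9 and 7 CPM in wild type under ethanol, 35.1, 18.8 and 41.7 in wild type under PEP1, 3.23, 7.27 and 3.20 in the RNAi line under ethanol and 45.5, 65.1 and 30.4 in the RNAi line under PEP1, and it rose by 2.26 ± 0.42 (edgeR adjusted p = 0.0109) and 3.36 ± 0.44 (edgeR adjusted p = 0.00126).

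Novel00543 combined a rise with a difference between the genotypes. It was at 12.1, 21.0 and 15.7 CPM in wild type under ethanol, 45.8, 32.9 and 37.8 in wild type under PEP1, 27.1, 55.8 and 34.7 in the RNAi line under ethanol and 87.3, 111 and 83.9 in the RNAi line under PEP1. PEP1 libraries were above ethanol libraries in each genotype, and RNAi libraries above wild type libraries in each treatment. Its PEP1 rises were 1.26 ± 0.28 (edgeR adjusted p = 0.0267) and 1.26 ± 0.27 (edgeR adjusted p = 0.0146), and it was 1.27 ± 0.28 (edgeR adjusted p = 0.0275) and 1.28 ± 0.27 (edgeR adjusted p = 0.0323) higher in the RNAi line under ethanol and PEP1. Novel00606 (2.11 and 1.52), Novel00312 (1.67 and 2.25) and Novel00874 (1.25 and 0.94) were the other 3 that rose in both genotypes, with the wild type change given first. The wild type calls of Novel00312 and Novel00543 were lost in 6 and 4 of 21 alternatives.

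Of the larger rises in the RNAi line, 3 did not pass in the wild type. Novel00128 was at 22.7, 12.5 and 30.9 CPM in the RNAi line under ethanol and at 285, 164 and 182 under PEP1, while the wild type had 12.5, 4.37 and 31.1 CPM under ethanol and 24.2, 35.9 and 25.9 under PEP1. The RNAi libraries under PEP1 were above all 9 others. It rose by 3.25 ± 0.60 in the RNAi line (log2, edgeR adjusted p = 0.00720) and changed by 0.84 ± 0.56 in the wild type (edgeR adjusted p = 0.458), but the difference between these changes, 2.41 ± 0.79, did not pass (edgeR adjusted p = 0.791). Novel01197 rose by 3.52 ± 0.67 in the RNAi line (edgeR adjusted p = 0.00875) and changed by 2.33 ± 0.61 in the wild type (edgeR adjusted p = 0.0547). Novel00322 changed by 4.71 ± 1.40 in the RNAi line (edgeR adjusted p = 0.0451), a call that was lost in 9 of 21 alternatives.

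The profiles of the transcripts that fell were set beside those of annotated loci over the 12 libraries, with log2(CPM + 1) and Pearson's r as the measure of likeness. The locus nearest to Novel00050 was LOC_Os02g43370 (YSL2, a transporter of metals bound to nicotianamine; r = 0.998), followed by LOC_Os03g19427 (NAS1, a nicotianamine synthase; r = 0.997). The nearest to Novel00554 was LOC_Os07g15460 (NRAMP1, a metal transporter; r = 0.997), and LOC_Os03g46454 (IRT2, a transporter of ferrous iron; r = 0.992) was second for Novel00270 after LOC_Os11g07240 (r = 0.993). YSL2 (LOC_Os02g43370) fell by 5.09 ± 0.39 in the wild type and by 4.18 ± 0.38 in the RNAi line, next to 4.70 and 4.01 for Novel00050. For Novel00160, Novel00766 and Novel00992, neither of the 2 nearest loci was an iron deficiency locus of the reference profile. The nearest were LOC_Os02g48390 (r = 0.989), LOC_Os09g07180 (r = 0.990) and LOC_Os01g48020 (r = 0.988), in that order. Such r values mostly state that both rows are high in the 6 ethanol libraries and low in the 6 PEP1 libraries. Nothing about shared function or position follows from them.

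Against all 9 iron deficiency loci of the reference profile, the median r was 0.988 for Novel00554, 0.987 for Novel00050, 0.975 for Novel00270, 0.959 for Novel00160, 0.947 for Novel00992 and 0.938 for Novel00766. Among those that rose in both genotypes, it was -0.955 for Novel00830, -0.948 for Novel01153, -0.871 for Novel00937, -0.815 for Novel00606, -0.739 for Novel00312 and -0.603 for Novel00543. Among the unannotated transcripts themselves, Novel00050 and Novel00554 were each other's nearest (r = 0.991), as were Novel00160 and Novel00992 (r = 0.988). Of the other risers, Novel00937 was nearest to LOC_Os01g10440 (r = 0.993), which rose by 2.80 ± 0.60 and 4.03 ± 0.63. Gene symbols of the iron and root loci were assigned from general knowledge and not by the authors' files.

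The 8 most counted transcripts, which held 20.3% of the summed CPM of the 463, passed no genotype test and no PEP1 test in the wild type. The first was Novel00484, at 389, 1404 and 767 CPM in wild type under ethanol, 311, 410 and 191 in wild type under PEP1, 646, 331 and 461 in the RNAi line under ethanol and 223, 265 and 285 in the RNAi line under PEP1. Its highest value was replicate 2 of wild type under ethanol, which was also the library with the highest shoot marker sum of its group, 281 CPM against 66.2 and 23.3. In the other groups the highest shoot marker sum and the highest Novel00484 lay in different libraries. The shoot marker sum of 744 CPM, in the RNAi line under PEP1, went with 265 CPM of Novel00484. In the RNAi line under ethanol, the highest sum, 65.3 CPM, went with the lowest Novel00484, 331 CPM. The part of the shoot marker level in the result was not tested. No PEP1 test was passed, at -1.49 ± 0.43 in the wild type (edgeR adjusted p = 0.0799) and -0.90 ± 0.43 in the RNAi line (edgeR adjusted p = 0.171).

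Novel00564 varied most within groups among these 8. It was at 848, 183 and 123 CPM in wild type under ethanol, 47, 92.3 and 1149 in wild type under PEP1, 143, 167 and 176 in the RNAi line under ethanol and 1186, 118 and 1160 in the RNAi line under PEP1. The 4 highest libraries, between 848 and 1186 CPM, were spread over 3 groups, the other 8 lay between 47 and 183 CPM, and no test was passed. Its nearest transcript, looked up after its values were seen, was Novel00064 (r = 0.976), with 23.0, 26.7, 32.0 and 33.8 CPM in the same 4 libraries and at most 2.72 CPM in the others.

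**Figure D4:**
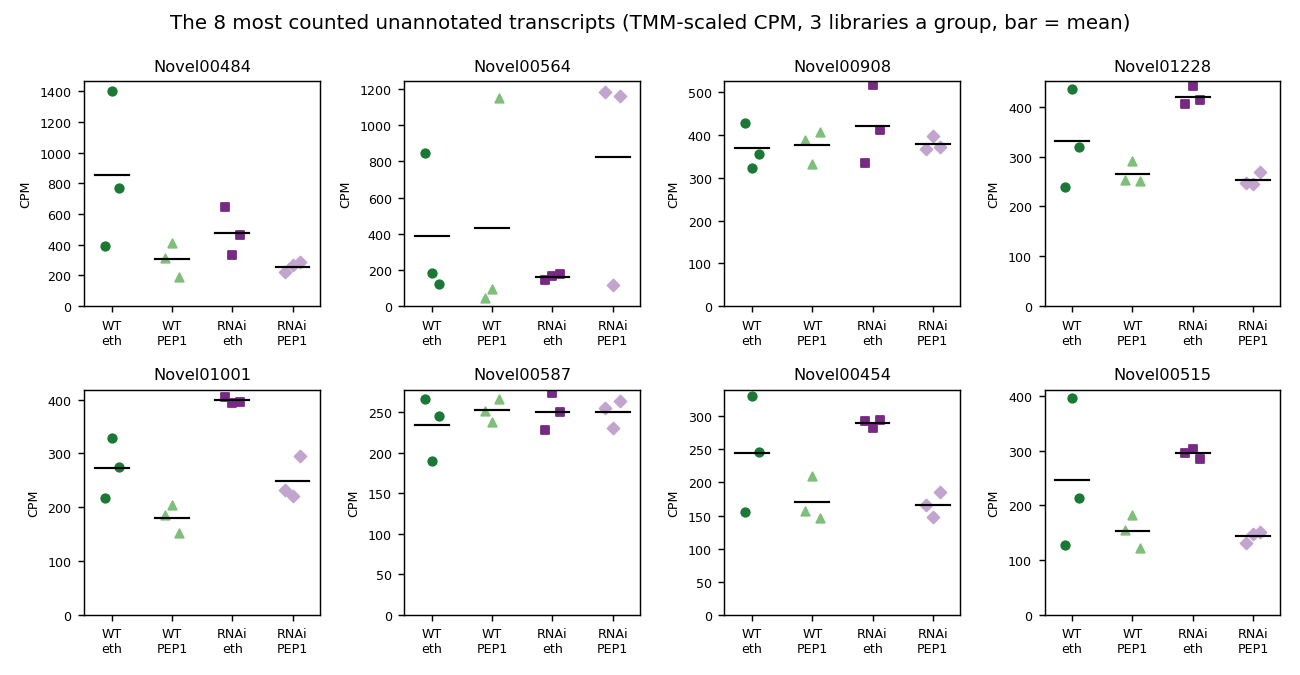
TMM-scaled CPM (y axis, from 0) in the 4 groups (x axis) of the 8 unannotated transcripts with the highest mean; points are libraries, 3 a group, and bars are means. Novel00564 has 4 libraries between 848 and 1186 CPM in 3 of the groups, while Novel00587 stays between 190 and 273 CPM in all 12 libraries.

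Of the other 6, Novel00587 was steady, with a coefficient of variation of 9.30%, and Novel00908 varied by 13.7% without a call. With PEP1, 3 fell in the RNAi line by less than 2-fold. Novel01228 stood at 405, 441 and 413 CPM under ethanol and 246, 246 and 270 under PEP1 there, a change of -0.73 ± 0.19 (log2, edgeR adjusted p = 0.0284). Novel01001 stood at 405, 394 and 396 CPM and then at 232, 222 and 295 (-0.68 ± 0.18, edgeR adjusted p = 0.0298), and Novel00454 at 293, 282 and 295 CPM and then at 165, 148 and 185 (-0.80 ± 0.24, edgeR adjusted p = 0.0447). The ethanol and PEP1 libraries of the RNAi line were apart in all 3. Novel00515 had -1.04 ± 0.32 (edgeR adjusted p = 0.0513). None of these 4 passed in the wild type, where the ethanol libraries were spread more widely, from 128 to 397 CPM in Novel00515.

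Over libraries, the 463 transcripts took 1.17, 1.55 and 1.37% of the counts in wild type under ethanol, 1.11, 1.29 and 1.10% in wild type under PEP1, 1.39, 1.40 and 1.39% in the RNAi line under ethanol and 1.15, 1.02 and 1.32% in the RNAi line under PEP1. The PEP1 libraries of the RNAi line were all below its ethanol libraries, and the wild type libraries overlapped. Of the 463, 329 had their highest CPM in an ethanol library, 147 (31.7%) of them in replicate 2 of the wild type and 100 (21.6%) in replicate 2 of the RNAi line. Among the annotated loci at this level, 17.5% and 11% peaked in these 2 libraries. In replicates 1 and 3 of wild type under ethanol, 2.16% and 1.51% of the 463 peaked, against 9.21% and 5.27% of these loci. In replicates 1 and 3 of the RNAi line under ethanol it was 8.64% and 5.4%, against 8.28% and 3.2%. The count of 329 has no summed share of annotated loci beside it, so it alone does not say whether the 463 stand out.

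**Figure D5:**
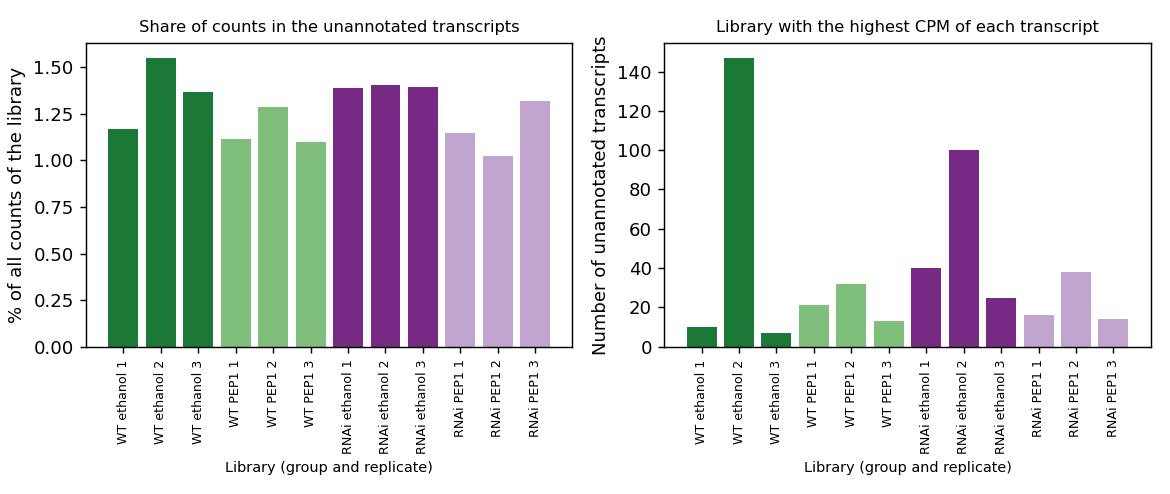
Share of each library's counts in the 463 unannotated transcripts (left, y axis in % of all counts) and the number of these transcripts with their highest TMM-scaled CPM in that library (right, y axis); each bar is 1 of the 12 libraries (x axis). Replicate 2 of wild type under ethanol has the highest bar in both panels, 1.55% and 147 transcripts.

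The transcript with the largest share of its summed CPM in 1 library was Novel00612, with 43.2% in replicate 2 of the RNAi line under PEP1, at 16.5 CPM against 3.21 and 7.97 in the other libraries of that group. All its RNAi libraries, at 2.85 CPM or more, were above all wild type libraries. The library with the 43.2% also had the highest shoot marker sum, 744 CPM, and the highest diterpenoid sum, 595 CPM, and the part of these in the result was not tested. In a principal component analysis of log2(CPM + 1) of the 463, the first component (61.7% of the variance) separated the genotypes and the second (23.2%) the treatments. Without the 35 transcripts read almost only in 1 genotype, the first (48.7%) separated the treatments and the second (21.4%) the genotypes. Of the 463, 330 passed none of the 4 comparisons of treatments or genotypes, 91 passed at least 1 PEP1 comparison, 54 at least 1 genotype comparison and 12 both kinds. No share over all features is set beside these counts, so they do not say whether the 463 stand out.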

How the data were processed

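The authors deposited raw read counts per feature, whole numbers that were not normalized, for RNA from roots in 12 libraries. Per the labels' protocols, RNA was taken with Trizol and libraries were made with an Illumina TruSeq RNA kit. Which aligner, genome build, annotation, counting tool and strand setting were used is not given in the sources used here. All features were fitted together with edgeR 4.0.16 in R 4.3.3 (quasi-likelihood test, TMM factors, filterByExpr, 1 mean per group over the 12 libraries, Benjamini-Hochberg adjustment over 25602 features, calls at an adjusted p of 0.05), after a check on simulated data. The fit's common dispersion was equal to a biological coefficient of variation of 0.313. The labels do not say that replicates came from separate cultures, so the spread behind each p-value is that between these libraries and may be technical in part or whole. Alternatives used DESeq2 1.42.0 and limma 3.58.1 (voom). The transcripts, lists and tests were chosen with earlier results of these data known. Named transcripts were those most counted, with the largest called changes, without a read in 1 genotype, next to the 5 CPM limit, or steadiest or most uneven. Others were chosen after their values were seen. Symbols (11) matched a RefSeq symbol of assembly ASM3414082v1 on the same chromosome. Intervals are 95% binomial (Clopper-Pearson) intervals.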

Additional observations from a re-analysis of the deposited data

How the results depend on the processing

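No named result reversed, and 45 of 48 named changes kept their call under all alternatives that gave a value. Calls were lost for Novel00312 and Novel00543 in the wild type and Novel00322 in the RNAi line. The PEP1 counts moved by more than 1.5 times, while the genotype counts did not. With DESeq2, 49 transcripts were called with PEP1 in the wild type, 143 in the RNAi line and 38 in both. With only the 6 libraries compared in the fit, 15 were called in the wild type and 14 in both. With an added 2-fold limit, 49 were called in the RNAi line. Leaving out 1 library gave 15 to 65 calls in the wild type (24 with all), 29 to 131 in the RNAi line (89) and 14 to 53 in both (22). The highest of all 3 counts came without replicate 1 of wild type under ethanol, and the lowest in the wild type and in both came without replicate 1 or replicate 3 of wild type under PEP1. In the RNAi line, counts were 51, 44 and 29 without replicate 1, 2 and 3 of its ethanol group, 29 and 32 without replicate 1 and 2 of its PEP1 group, and 59 without replicate 1 of wild type under PEP1. The genotype counts were 45 to 53 under ethanol, 45 to 54 under PEP1 and 45 to 47 in both, and the test of the difference in PEP1 response stayed at 0. Without replicate 1 of wild type under ethanol, replicate 2 of the RNAi line under ethanol and replicate 2 of the RNAi line under PEP1, an alternative chosen after seeing the data, 65 were called in the wild type and 43 in the RNAi line. The number of transcripts was 458 to 470 without 1 library, 664 at a limit of 2 CPM and 313 at 10 CPM. Libraries with the same replicate number did not deviate together (r from -0.55 to 0.68 over 18 pairs, 5 of 12 libraries nearest to their own number), so the numbers were not taken as pairs. With the replicate block, 22 and 79 transcripts were called with PEP1, 20 in both genotypes, 50 under ethanol and 50 under PEP1 between the genotypes, 47 in both treatments and 0 for the difference. The test of the difference was not run with only 6 libraries. Depth limited what could be said of the rows near 0.141 to 0.195 CPM. The cause of these shifts was not tested.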
